A study of Homo sapiens with 6 samples.

Results

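Collagens are the main structural proteins of the extracellular matrix. Each collagen is a trimer of chains wound into a triple helix, and each chain has its own gene, named COL with the type, A and the chain. Fibrillar collagens assemble into banded fibrils, type IV collagens form the sheet-like network of basement membranes, and the remaining types bind fibrils, build other networks or span the cell membrane. The genes were taken as the rows of the count table whose symbol has the form COL, a number, A and a number, which gave 44 of 17100 transcripts. By textbook class they were 11 fibrillar genes, 6 type IV (basement membrane) genes and 27 others.

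The cells were MDA-MB-231, an established human breast adenocarcinoma line with a mesenchymal appearance and without hormone receptors. RNA was sequenced from 3 cultures given vehicle and 3 cultures given guadecitabine (SGI-110) at 1 µM for 96 h and then kept without drug for 24 h. The methods of the study describe the RNA as coming from independent experiments. Guadecitabine is a prodrug of decitabine, a nucleoside that traps DNA methyltransferases so that DNA methylation is lost as cells divide, and RNA levels alone were measured here. Vehicle libraries held 17602570 to 22277442 reads in exons and guadecitabine libraries 8792127 to 21410849, the lowest being guadecitabine replicate 2. In these bulk cultures, a change in the number of cells expressing a gene and a change in RNA per cell cannot be told apart.

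Vehicle replicate 3 stood apart from the other libraries in its low counts. It had 20 transcripts at 0 counts, against 1593 to 2517 in the other 5 libraries, and 0 of the 44 collagens at 0 counts, against 8 to 17. Among the collagens, 11 had at most 3 reads, taken as the floor of detection, in each of the other 5 libraries (COL2A1, COL5A3, COL6A5, COL6A6, COL9A1, COL10A1, COL19A1, COL21A1, COL22A1, COL25A1 and COL26A1). In vehicle replicate 3 the same 11 had 15 to 71 reads, with a median of 6.49 reads per kb of exon. The 2276 other transcripts chosen the same way had a median of 8.10 reads per kb there. COL2A1, the cartilage fibril chain, had 0 reads in each of the other 5 libraries and 60 in vehicle replicate 3. Results on weakly expressed collagens are therefore given with and without this library.

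A further 8 collagens (COL3A1, COL4A3, COL11A1, COL14A1, COL20A1, COL23A1, COL24A1 and COL28A1) exceeded 3 reads in some library other than vehicle replicate 3, with at most 9 reads there and 22 to 108 reads in vehicle replicate 3. COL3A1, the partner of type I collagen in the fibrils of soft tissue, had 2, 4 and 108 reads in vehicle replicates 1, 2 and 3 and 1, 5 and 0 reads after guadecitabine. COL14A1, a fibril-associated chain, had 0, 0 and 59 reads with vehicle and 8, 3 and 2 after guadecitabine. These 19 genes did not pass the filter on low counts and were not tested, so that 25 of the 44 collagens entered the comparison. No difference between groups was tested in the 19 in this comparison. The DESeq2 Wald test, an alternative run without this filter, called none of them. It gave no adjusted p for COL3A1, COL6A5, COL9A1, COL10A1, COL21A1, COL22A1, COL23A1, COL26A1 and COL28A1, which could therefore not be called.

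**Figure D1:**
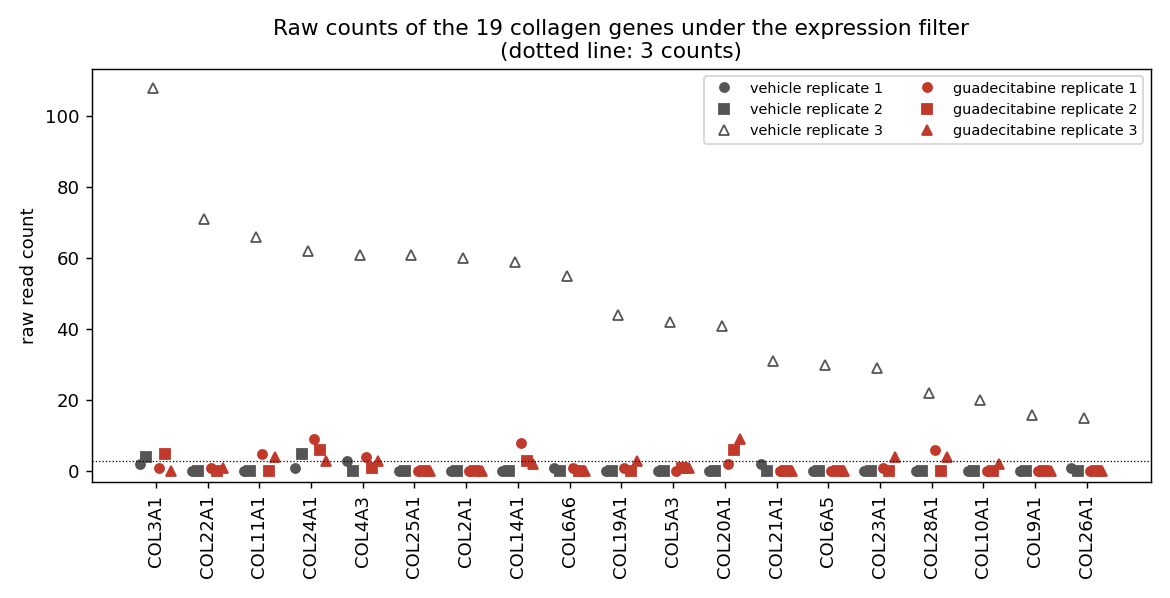
Raw read counts (vertical axis) of the 19 untested collagen genes in each of the 6 libraries, ordered by their count in vehicle replicate 3 (open triangles), with a dotted line at 3 counts. Vehicle replicate 3 lies at 15 to 108 reads and the other 5 libraries at 0 to 9.

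Levels of different genes were compared as normalised reads per kb of counted exon. In vehicle, COL13A1, a transmembrane collagen of cell adhesion sites, had the highest mean level with 1156 ± 194 reads per kb (SD, n = 3), followed by COL6A1, a chain of the beaded filaments around cells, with 968 ± 109. COL18A1, the basement membrane proteoglycan whose end fragment is endostatin, had 909.8 ± 191 reads per kb (SD, n = 3), and the ranges of these 3 genes overlapped between neighbours in this order. COL6A2 with 578 ± 64.8, COL5A1 with 572 ± 58.3 and COL8A1 with 391 ± 32.4 reads per kb came next (SD, n = 3 each). These 6 genes made up 77.9% of the collagen level per kb in vehicle. Of the 24 pairs of neighbours in the order of the 25 tested genes, 17 had overlapping ranges in vehicle and 17 after guadecitabine.

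After guadecitabine COL6A1 was first with 1063 ± 149 reads per kb and COL6A2 second with 888 ± 171 (SD, n = 3 each). COL13A1 stood at rank 4, COL18A1 at rank 7 and COL5A1 at rank 11. COL1A1, at rank 16 in vehicle with 32.2 ± 15.02 reads per kb, was at rank 6 with 339.8 ± 48.4 (SD, n = 3 each). The summed level of all 44 collagens was 6303, 6092 and 5229 reads per kb in vehicle replicates 1, 2 and 3 and 4483, 5908 and 5009 after guadecitabine, so that the groups overlapped in the sum. Collagens took 0.154% to 0.166% of all counts in vehicle and 0.125% to 0.157% after guadecitabine. By class, type IV genes held 9.13% to 9.45% of the collagen level per kb in vehicle and 10.8% to 11.6% after guadecitabine, with no overlap. Fibrillar genes held 12.6% to 15.4% and then 11.7% to 12.2%, where the highest vehicle share was that of vehicle replicate 3. In contrast to its share, the summed type IV level overlapped between groups. It was 595.5, 555.9 and 493.6 reads per kb in vehicle replicates 1, 2 and 3 and 515.1, 688.4 and 542.2 after guadecitabine.

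**Figure D2:**
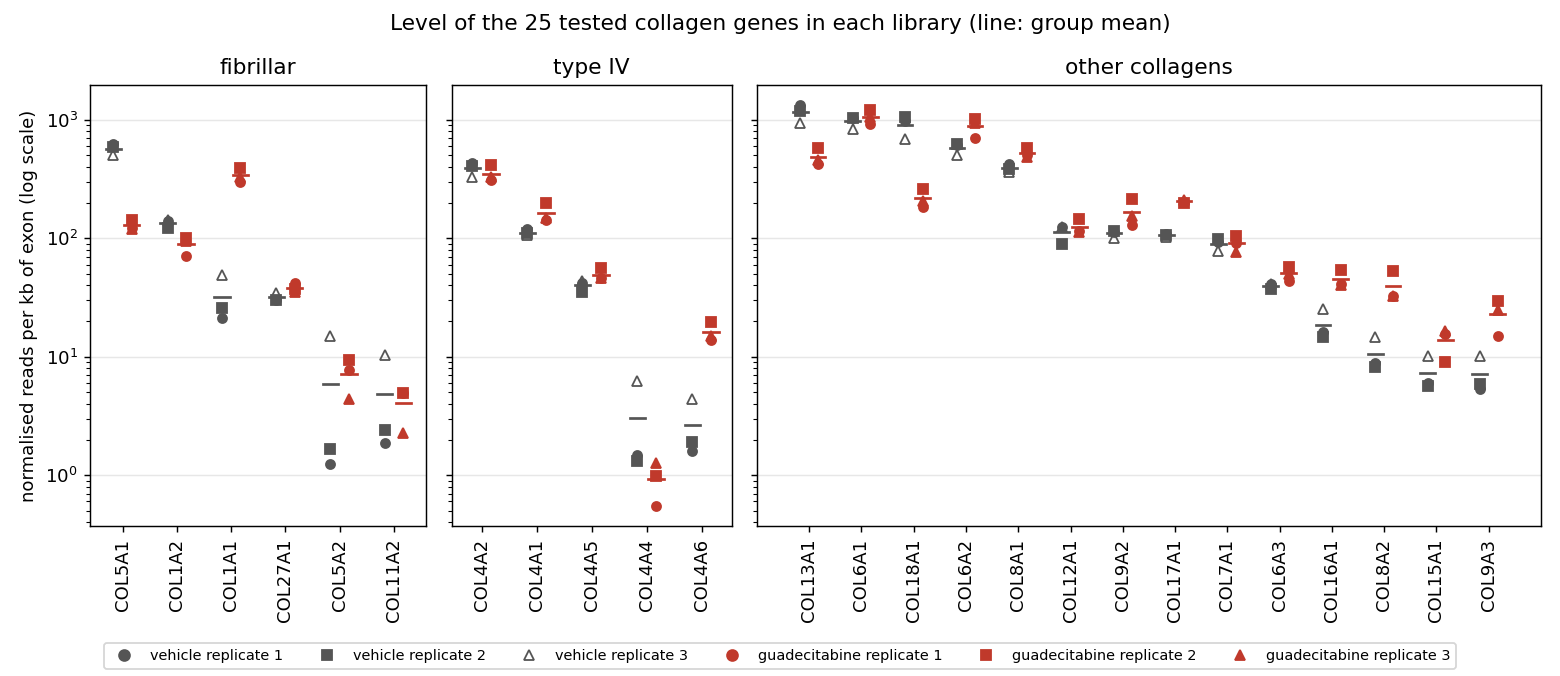
Normalised reads per kb of exon (log scale) of the 25 tested collagen genes in each vehicle (grey) and guadecitabine (red) library, in the fibrillar, type IV and other classes, with a line at each group mean. COL1A1 rises from a mean of 32.2 to 339.8 reads per kb while COL5A1, COL13A1 and COL18A1 lie lower in each guadecitabine library than in each vehicle library, and the open triangles of vehicle replicate 3 lie above the other vehicle libraries for weakly expressed genes such as COL5A2.

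Guadecitabine moved collagen genes in both directions. Of the 25 tested, 10 rose and 4 fell with an edgeR adjusted p under 0.05 (quasi-likelihood test, Benjamini-Hochberg adjustment over 13322 genes). The higher genes were COL1A1, COL4A1, COL4A6, COL6A2, COL8A1, COL8A2, COL9A2, COL9A3, COL16A1 and COL17A1, and the lower ones COL1A2, COL5A1, COL13A1 and COL18A1. This was 40.0% higher and 16.0% lower, where over all genes tested 19.3% were higher and 18.4% lower. Counts of single classes and subclasses, given below, rest on few genes each and are read against the same shares. The median log2 fold change was 0.28 over the tested collagens and 0.02 over all genes tested. In all 14 called collagens the normalised counts of the groups did not overlap, and the same share over all called genes was not computed. Counting the genes that were not called, 18 of 25 did not overlap (72.0%), against 51.6% of all genes tested. For a single gene, groups of 3 that do not overlap give a two-sided exact permutation p of 0.1, the smallest that 3 against 3 libraries allow.

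Without vehicle replicate 3, 11 collagens were higher and 4 lower, with 22.6% of all genes tested higher and 19.4% lower in that fit, and the median was 0.37 for collagens and 0.04 for all genes. COL5A2 and COL15A1 gained a call in that fit and COL9A2 lost it. Of the 14 called genes, 9 kept an adjusted p under 0.05 whichever of the 6 libraries was removed. The other 5 (COL4A1, COL6A2, COL8A1, COL9A2 and COL9A3) lost it without at least 1 library, as given with each gene. Leaving out vehicle replicate 2 or guadecitabine replicate 3 took the number of higher collagens from 10 to 6 in either case, and that of the other class, described last, from 7 to 4 and 3. The share of all genes called was not computed for these fits. A loss of calls over all genes thus cannot be told apart from one in collagens.

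**Figure D3:**
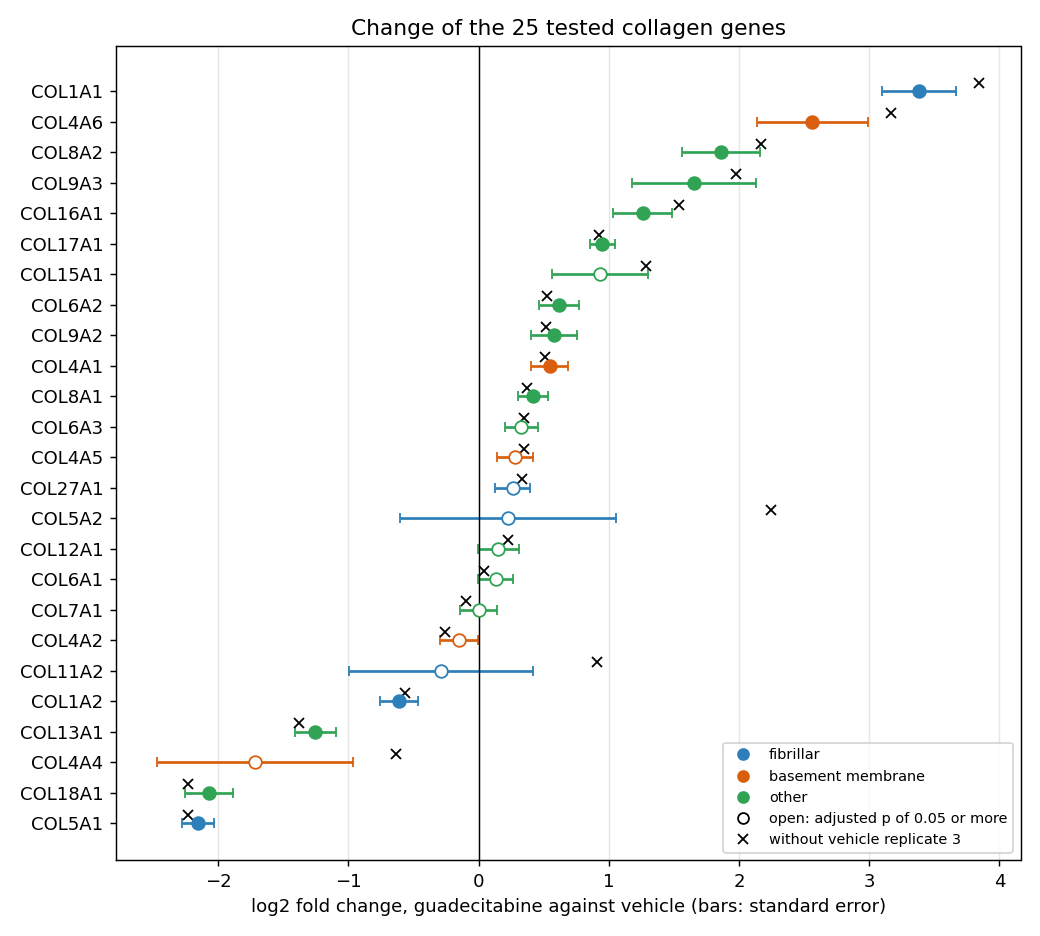
Log2 fold change of the 25 tested collagen genes, guadecitabine against vehicle, with standard errors as bars, filled points for an adjusted p under 0.05 and crosses for the fit without vehicle replicate 3. The largest rise is COL1A1 at 3.38 and the largest fall COL5A1 at -2.15, and the cross of COL5A2 at 2.25 lies far from its point at 0.23.

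Of the 11 fibrillar genes, 6 were tested, of which 1 was higher, 2 were lower and 3 were not called. Their median log2 fold change was -0.03, or 0.63 without vehicle replicate 3. The 2 chains of type I collagen, the most abundant fibril protein of connective tissue, went in opposite directions. COL1A1 encodes the α1 chain and its deposited hg19 position is 48261457 to 48279000 of chromosome 17, minus strand. It had 126, 154 and 292 normalised counts in vehicle replicates 1, 2 and 3 and 1760, 2325 and 1957 after guadecitabine. Each guadecitabine library was far above each vehicle library, and vehicle replicate 3 was the highest of its group. The rise was 10.4-fold, or 3.38 ± 0.29 on the log2 scale (SE; edgeR adjusted p = 3.34e-05), or 3.85 ± 0.18 without vehicle replicate 3 (SE; edgeR adjusted p = 1.80e-07).

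COL1A2 encodes the α2 chain and spans 94023873 to 94060544 of chromosome 7, plus strand. It had 756, 659 and 774 normalised counts with vehicle and 384, 549 and 513 after guadecitabine. The guadecitabine libraries were all below the vehicle libraries, a 1.53-fold fall with a log2 difference of -0.61 ± 0.15 (SE; edgeR adjusted p = 0.0107). In reads per kb, the level of COL1A1 divided by that of COL1A2 was 0.152, 0.214 and 0.344 in vehicle and 4.18, 3.87 and 3.48 after guadecitabine. The α1 transcript was thus the scarcer one in each vehicle library and the more abundant one in each guadecitabine library (two-sided exact permutation test of the log ratio, p = 0.1). The type I trimer normally holds more α1 than α2 chains.

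The bases just upstream of the deposited start of COL1A2 are shown because this gene fell while its partner chain rose. DNA methylation, which the drug lowers, sits on CpG sites. They were read from GRCh37, the assembly of hg19, on the plus strand and outside any exon of the GENCODE annotation, at chr7:94023623-94023872. Capitals mark the 15 CpG sites in these 250 bases. The stretch holds the letters GGGCGG on either strand 2 times and neither CCAAT nor TATAAA. The deposited COL1A2 transcript has 5411 exon bases and the longest protein-coding one in GENCODE has 5072. No GENCODE transcript shares both its start and its end. Other bases may thus hold the promoter in use, so the missing letters describe this stretch only.
COL1A2: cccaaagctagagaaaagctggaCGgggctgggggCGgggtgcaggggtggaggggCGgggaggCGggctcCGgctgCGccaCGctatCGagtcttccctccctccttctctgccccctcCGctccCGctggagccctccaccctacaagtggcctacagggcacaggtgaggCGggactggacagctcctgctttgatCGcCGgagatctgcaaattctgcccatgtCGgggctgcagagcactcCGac

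COL5A1 encodes the main chain of type V collagen, which starts fibril assembly and limits fibril width. It spans 137533651 to 137736688 of chromosome 9, plus strand. It had 5193, 4881 and 4239 normalised counts with vehicle and 1024, 1198 and 1004 after guadecitabine, the largest fall among the tested collagens. This was 4.45-fold, or -2.15 ± 0.12 on the log2 scale (SE; edgeR adjusted p = 3.07e-06), and between -2.23 and -2.09 whichever library was removed. COL5A2, the partner chain in the usual type V trimer, had 9, 11 and 134 raw reads with vehicle and 66, 32 and 30 after guadecitabine. Its log2 fold change was 0.23 ± 0.83 with all libraries (SE; edgeR adjusted p = 0.853) and 2.25 without vehicle replicate 3 (edgeR adjusted p = 0.00184), so that its call rests on that library.

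The other tested fibrillar genes were not called. COL27A1, a cartilage-type fibrillar chain, had a log2 difference of 0.26 ± 0.13 (SE; edgeR adjusted p = 0.156). COL11A2, another cartilage chain, had 12 to 14 raw reads in vehicle replicates 1 and 2, 83 in vehicle replicate 3 and 14 to 38 after guadecitabine. Its log2 fold change was -0.29 with all libraries and 0.91 without vehicle replicate 3, with neither called.

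Type IV collagen genes lie in 3 head-to-head pairs, each read in opposite directions from a shared stretch. The gap between the deposited start sites was 126 bp for COL4A1 and COL4A2 on chromosome 13, 5 bp for COL4A3 and COL4A4 on chromosome 2 and 346 bp for COL4A5 and COL4A6 on chromosome X. Of the 6 genes 5 were tested, with 2 higher, 0 lower and a median log2 fold change of 0.28 (0.35 without vehicle replicate 3). The DESeq2 Wald test also called 2 higher and 0 lower, and 1 gene, COL4A4, was lower at an unadjusted edgeR p under 0.05. In the COL4A1 pair and the COL4A5 pair, 1 gene was higher and the other was not called.

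COL4A1 and COL4A2 encode the chains of the basement membrane network found in nearly all tissues. COL4A1 had 781, 720 and 692 normalised counts with vehicle and 932, 1308 and 979.9 after guadecitabine, a rise of 0.55 ± 0.14 on the log2 scale (SE; edgeR adjusted p = 0.0148). Without vehicle replicate 2 the adjusted p was 0.0505. COL4A2 had 2666, 2518 and 2026 normalised counts with vehicle and 1928, 2545 and 2040.5 after guadecitabine, and these overlapped (log2 fold change -0.15 ± 0.14 SE, edgeR adjusted p = 0.446). The ratio of COL4A1 to COL4A2 in reads per kb was 0.277, 0.270 and 0.322 in vehicle and 0.457, 0.486 and 0.454 after guadecitabine. The guadecitabine ratios were all above the vehicle ratios (two-sided exact permutation test, p = 0.1). The stretch between both genes is shown as the one promoter region they share, on the plus strand of GRCh37 at chr13:110959505-110959604, which is the part of the gap without an annotated exon. COL4A1 is read to the left of it and COL4A2 to the right, and capitals mark its 14 CpG sites in 100 bases.
COL4A1 and COL4A2: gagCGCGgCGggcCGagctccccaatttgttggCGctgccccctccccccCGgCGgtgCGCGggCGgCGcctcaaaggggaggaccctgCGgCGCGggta

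COL4A5 and COL4A6 encode chains of specialised basement membranes such as those of kidney, skin and smooth muscle. COL4A6 spans 107398837 to 107682727 of chromosome X, minus strand. It had 11, 12 and 38 raw reads with vehicle and 113, 64 and 97 after guadecitabine, or 10.5, 12.7 and 29.2 normalised counts and then 91.4, 130.2 and 97.9. The guadecitabine libraries were all above vehicle replicate 3, the highest of the vehicle libraries. The rise was 5.91-fold, or 2.56 ± 0.43 on the log2 scale (SE; edgeR adjusted p = 0.00162), or 3.16 without vehicle replicate 3. COL4A5 had 270, 230.1 and 284 normalised counts with vehicle and 299, 364 and 299 after guadecitabine (log2 fold change 0.28 ± 0.14 SE, edgeR adjusted p = 0.146). In reads per kb COL4A5 exceeded COL4A6 26.2, 18.4 and 9.87 times in vehicle and 3.32, 2.84 and 3.09 times after guadecitabine. The bases upstream of COL4A6 are shown because this gene rose while its neighbour across the gap was not called. They were read on its own minus strand of GRCh37 at chrX:107682728-107682977, with the 9 CpG sites in capitals, and they lie within the gap towards COL4A5.
COL4A6: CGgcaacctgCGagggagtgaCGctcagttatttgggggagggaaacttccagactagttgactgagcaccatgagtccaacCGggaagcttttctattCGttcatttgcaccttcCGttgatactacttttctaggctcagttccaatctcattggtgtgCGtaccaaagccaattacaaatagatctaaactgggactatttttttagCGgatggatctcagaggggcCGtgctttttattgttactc

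COL4A3 and COL4A4, chains of the kidney filter and the inner ear, were near the floor. COL4A3 had 3, 0 and 61 raw reads with vehicle and 4, 1 and 3 after guadecitabine and was not tested. COL4A4 had 16, 13 and 84 with vehicle and 7, 5 and 13 after guadecitabine. Its log2 fold change was -1.72 with all libraries (edgeR adjusted p = 0.102) and -0.63 without vehicle replicate 3.

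Of the 27 other collagens 14 were tested, with 7 higher, 2 lower, 5 not called and a median log2 fold change of 0.50, or 0.44 without vehicle replicate 3. Both falls were large and in strongly expressed genes. COL18A1, at 46825052 to 46933634 of chromosome 21, plus strand, had 5286, 5757 and 3770 normalised counts with vehicle and 1005, 1424 and 1119 after guadecitabine. This was a 4.19-fold fall, or -2.07 ± 0.19 on the log2 scale (SE; edgeR adjusted p = 4.71e-05). Its last exons overlap those of SLC19A1, the folate carrier gene on the opposite strand, which had 0, 0 and 17 raw reads with vehicle and 51, 24 and 42 after guadecitabine, far fewer than the 700 to 5552 reads of COL18A1. Reads of the shared bases cannot be told apart without strand. COL15A1, the other gene of this subclass, had 34, 29 and 71 raw reads with vehicle and 105, 24 and 89 after guadecitabine. Its groups overlapped, and its log2 fold change of 0.93 (edgeR adjusted p = 0.0748) became 1.29 without vehicle replicate 3 (edgeR adjusted p = 0.00571) and 1.15 without guadecitabine replicate 2 (edgeR adjusted p = 0.0474).

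Among transmembrane collagens COL13A1 fell and COL17A1 rose. COL13A1 had 4062, 3608 and 2888 normalised counts with vehicle and 1296.5, 1745 and 1399.7 after guadecitabine, a 2.39-fold fall with a log2 difference of -1.25 ± 0.16 (SE; edgeR adjusted p = 0.000327). COL17A1, a hemidesmosome protein that anchors epithelial cells to the basement membrane, had 608, 600.7 and 568 normalised counts with vehicle and 1135, 1111 and 1188 after guadecitabine. Both groups were tight and lay far apart, with a 1.93-fold rise (log2 fold change 0.95 ± 0.10 SE, edgeR adjusted p = 9.41e-05). COL23A1 and COL25A1 were not tested, with at most 4 reads outside vehicle replicate 3.

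The fibril-associated (FACIT) collagens sit on the surface of fibrils, and 4 of 10 were tested, of which 3 were higher, or 2 without vehicle replicate 3. COL16A1 had 89.5, 82.3 and 139.9 normalised counts with vehicle and 231, 301 and 226 after guadecitabine, a 2.39-fold rise (log2 fold change 1.26 ± 0.23 SE, edgeR adjusted p = 0.00254). Without vehicle replicate 3 its log2 fold change was 1.54. COL9A3, a chain of cartilage type IX collagen, had 13, 13 and 31 raw reads with vehicle and 43, 34 and 57 after guadecitabine. Its log2 fold change was 1.66 ± 0.48 (SE; edgeR adjusted p = 0.0230), and the adjusted p rose to at most 0.102 without vehicle replicate 1 or 2 or guadecitabine replicate 2 or 3. Without vehicle replicate 3 the log2 fold change of COL9A3 was 1.98 (edgeR adjusted p = 0.00222). COL9A2, its partner chain, had 323, 326 and 286 normalised counts with vehicle and 369.8, 606 and 435 after guadecitabine (log2 fold change 0.58 ± 0.18 SE, edgeR adjusted p = 0.0300). Its adjusted p was between 0.0586 and 0.0748 without any of 5 libraries, the exception being guadecitabine replicate 1. COL12A1, a stress-bearing fibril-associated chain, overlapped between groups, with a log2 difference of 0.15 ± 0.16 (SE; edgeR adjusted p = 0.484).

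Type VIII collagens form short-chain networks under endothelium and in the cornea, and both genes were higher. COL8A2 had 40.0, 36.9 and 66.1 normalised counts with vehicle and 146, 240.04 and 147 after guadecitabine, a 3.64-fold rise (log2 fold change 1.86 ± 0.30 SE, edgeR adjusted p = 0.00137). Without vehicle replicate 3 its log2 fold change was 2.17. COL8A1, the more abundant chain, had 1321, 1182 and 1126 and then 1558, 1796 and 1505, a rise of 0.42 ± 0.11 on the log2 scale (SE; edgeR adjusted p = 0.0191). Its adjusted p was 0.0749 without vehicle replicate 2, 0.0523 without guadecitabine replicate 2 and 0.0510 without guadecitabine replicate 3.

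Type VI collagen forms the beaded filaments next to cells, from 3 different chains. COL6A2 had 2097.5, 2133.5 and 1731 normalised counts with vehicle and 2393, 3519 and 3252 after guadecitabine, a 1.53-fold rise (log2 fold change 0.62 ± 0.16 SE, edgeR adjusted p = 0.0132), with an adjusted p of 0.0745 without guadecitabine replicate 3. COL6A1, its neighbour on chromosome 21, had 4340, 4374 and 3562 normalised counts with vehicle and 3878, 5138.5 and 4455 after guadecitabine, and was not called (log2 fold change 0.13 ± 0.13 SE, edgeR adjusted p = 0.468). COL6A3 had a log2 difference of 0.33 ± 0.13 (SE; edgeR adjusted p = 0.0694) and passed only without guadecitabine replicate 1 (edgeR adjusted p = 0.0176). In reads per kb COL6A1 exceeded COL6A2 1.68, 1.67 and 1.68 times in vehicle and 1.32, 1.19 and 1.11 times after guadecitabine, while the ratio of COL6A1 to COL6A3 overlapped between groups. COL7A1, the anchoring fibril chain of skin, had a log2 difference of 0.0012 ± 0.14 (SE; edgeR adjusted p = 0.996).

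**Figure D4:**
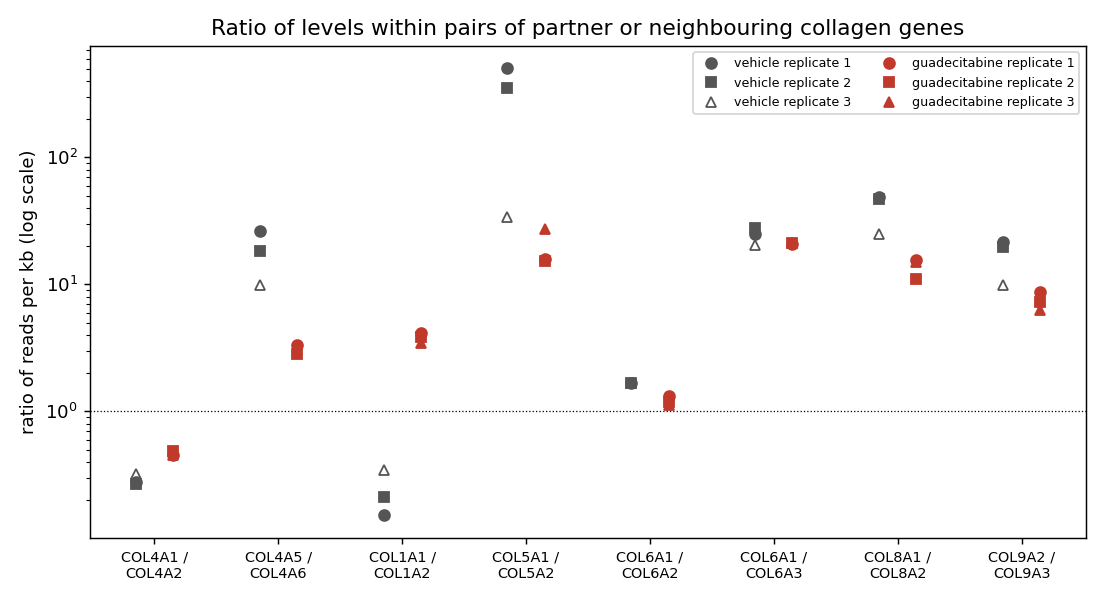
Ratio of normalised reads per kb (log scale) of the first to the second gene in 8 pairs of partner chains or neighbouring genes, in each vehicle (grey) and guadecitabine (red) library. The ratio of COL1A1 to COL1A2 goes from 0.152 to 0.344 in vehicle to 3.48 to 4.18 after guadecitabine, crossing the dotted line at 1, and of the 8 pairs the ratio of COL6A1 to COL6A3 overlaps between groups.

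Ratios of partner chains and of neighbouring genes are given as a description. In 7 of 8 pairs with reads of both genes in each library the ratios of the groups did not overlap, with a two-sided exact permutation p of 0.1 for each, which cannot be lower. Among single tested genes 51.6% did not overlap, and the share over other gene pairs was not computed. The ratio of COL5A1 to COL5A2 went from 503, 349 and 34.2 to 15.9, 15.3 and 27.5, where the low vehicle value was that of vehicle replicate 3. The ratio of COL8A1 to COL8A2 went from 48.4, 46.9 and 24.99 to 15.6, 10.98 and 14.98. The ratio of COL9A2 to COL9A3 went from 21.6, 19.6 and 9.92 to 8.78, 7.24 and 6.25. In these 3 pairs vehicle replicate 3 lay closest to the guadecitabine libraries, and its normalised count of the rarer gene was the highest of the vehicle libraries. It also lay closest in the ratios of COL1A1 to COL1A2, COL4A5 to COL4A6 and COL4A1 to COL4A2. In that of COL6A1 to COL6A2 it did not.

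The promoter windows of the 44 genes, from 250 bases before to 50 after the deposited start, were searched for CpG sites, the sites that carry DNA methylation. Methylation was not measured here. The 10 higher collagens had a median of 24 CpG sites (range 1 to 51), the 4 lower a median of 29 (18 to 47), the 11 not called a median of 19 (4 to 45) and the 19 untested a median of 13 (1 to 39), and the median over the 17093 windows of the table was 22. COL1A1, the largest rise, had 13, COL4A6 10 and COL17A1 1, while COL8A2 had 51, COL18A1 47 and COL5A1 37. CpG-poor and CpG-rich windows thus occurred among the collagens that rose, and the 2 largest falls were in CpG-rich ones. The windows rest on the deposited starts, and for most collagens no GENCODE transcript had both the same start and the same end. The letters GGGCGG, counted on both strands, were in the windows of 8 of the 10 higher and 3 of the 4 lower genes, and in 61.0% of all windows. The letters CCAAT were in 4 of the 10 higher and 0 of the 4 lower genes (35.4% of all windows), and TATAAA in 3 of 10 and 1 of 4 (8.38% of all windows).

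The genes that modify, secrete, crosslink and bind collagen were described from 4 lists. Of the 49 tested genes of these lists 11 were higher and 13 lower, or 22.4% and 26.5%, beside 19.3% and 18.4% of all genes tested, with a median log2 fold change of 0.005. The higher share was thus near that of all genes, and the counts of the single lists, of 8 to 19 tested genes each, are read against the same shares. Without vehicle replicate 3 the counts were 15 and 13 (22.6% and 19.4% of all genes tested in that fit), without vehicle replicate 2 they were 6 and 10, without vehicle replicate 1 they were 9 and 8, and without guadecitabine replicate 3 they were 7 and 7. The share of all genes called was computed for the fit without vehicle replicate 3 but not for the others. For chain modification and folding, 5 of 19 tested genes were higher and 5 lower. COLGALT1, the galactosyltransferase for hydroxylysine, rose with a log2 fold change of 0.73, P4HA2, a prolyl 4-hydroxylase subunit, with 0.70 and P3H1, a prolyl 3-hydroxylase, with 0.35. PLOD1 and PLOD3, lysyl hydroxylases, fell by 0.60 and 0.37 on the log2 scale, and CRTAP, the partner of P3H1, by 0.55 (adjusted p at most 0.0372 for these 6, edgeR). Other called members of these enzyme families moved the opposite way. PLOD2, also a lysyl hydroxylase, was higher, with a log2 fold change of 0.64 (edgeR adjusted p = 0.0064). P4HA1 and COLGALT2, relatives of P4HA2 and COLGALT1, were lower, with log2 fold changes of -0.52 and -1.97 (edgeR adjusted p = 0.022 and 0.0015). FKBP10, a chaperone of type I procollagen named after its values were seen, had 17, 5 and 74 raw reads with vehicle and 374, 202 and 346 after guadecitabine. Its log2 fold change was 3.66 ± 0.53 (SE; edgeR adjusted p = 0.000730), or 4.99 without vehicle replicate 3.

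For secretion, propeptide removal and crosslinking, 2 of 14 tested genes were higher and 4 lower. The crosslinking enzymes LOXL2 and LOXL4 fell by 0.52 and 0.65 on the log2 scale and ADAMTS14, a procollagen N-proteinase, by 1.83 (edgeR adjusted p = 0.0133, 0.00598 and 0.000774). LOX and CTAGE5 were higher by 0.29 and 0.40, with adjusted p of 0.0482 and 0.0380 (edgeR) that became 0.0629 and 0.0552 without vehicle replicate 3. For receptors and uptake, 1 of 8 was higher and 2 were lower. ITGA1, an integrin chain that binds type IV collagen, rose with a log2 fold change of 0.67, and MRC2, an endocytic collagen receptor, fell by 0.41 on the log2 scale (edgeR adjusted p = 0.0126 and 0.0344). ITGA10, a cartilage collagen receptor chain, had 91, 76 and 359 raw reads with vehicle and 15, 7 and 11 after guadecitabine (edgeR adjusted p = 0.00107), with a log2 fold change of -3.59, or -2.76 without vehicle replicate 3.

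Fibril-binding proteins held the largest rise of the 4 lists. SPARC, a collagen-binding glycoprotein secreted with type I collagen in bone and scar, had 18, 24 and 74 raw reads with vehicle and 3759, 1665 and 2994 after guadecitabine. Its log2 fold change was 6.51 ± 0.32 (SE; edgeR adjusted p = 1.41e-06), or 7.21 without vehicle replicate 3. TNXB and MATN2, matrix proteins that bind fibrils, rose with log2 fold changes of 1.44 and 0.41, and FN1, fibronectin, fell by 0.61 on the log2 scale (edgeR adjusted p = 0.000386, 0.0110 and 0.0231). TNXB has a near-identical partial copy, TNXA, so that its counts are uncertain. PRELP, a small proteoglycan, had 40, 42 and 162 raw reads with vehicle and 1, 2 and 1 after guadecitabine (edgeR adjusted p = 0.000842). Of this list 8 genes were tested, with 3 higher and 2 lower.

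Markers of the cell line and of other cell types were set beside these results. VIM, CD44, EGFR, AXL and CAV1, typical of MDA-MB-231, were at 910 raw reads or more in each library, and ESR1 and PGR, the absent hormone receptors, had at most 1 read outside vehicle replicate 3. Of the 5 typical markers VIM and CD44 were higher and AXL and CAV1 lower. Without vehicle replicate 3, 1 was higher and 2 lower, VIM having an edgeR adjusted p of 0.0557. Of 3 luminal or epithelial markers taken to be low, CDH1 had 6 to 87 reads, while EPCAM with 90 to 466 reads and GATA3 with 321 to 766 were detected. GATA3 was higher by 0.83 on the log2 scale, and CDH1 and EPCAM were lower, with log2 fold changes of -1.62 and -0.68 (edgeR adjusted p = 0.000512, 0.0313 and 0.00446). All 3 were called in the same direction without vehicle replicate 3. Of 8 fibroblast markers 6 were tested, with FBLN1 higher and PDGFRB lower. Without vehicle replicate 3, 5 were higher and 1 lower. Their summed level was 75.2, 79.4 and 169.6 reads per kb in vehicle replicates 2, 1 and 3 and 130.05 to 166.1 after guadecitabine. FAP had 0 reads and DCN at most 4 in each guadecitabine library, while THY1 had 0, 1 and 51 reads with vehicle and 96, 42 and 89 after guadecitabine. Of 5 endothelial markers 4 were tested, with KDR higher (3 higher without vehicle replicate 3), and their sum was 23.2 to 49.7 reads per kb with vehicle and 50.6 to 64.0 after guadecitabine. Their part in the collagen changes was not tested.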

How the data were processed

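RNA was sequenced from 3 vehicle and 3 guadecitabine cultures of MDA-MB-231 cells. Reads had been aligned by the authors with STAR (2.3.1z per the submitters' processing notes) on hg19, and the deposited raw counts, not normalized, are of tags in the exons of each RefSeq transcript, made with iRNA-seq. The handling of reads with several matches and of strand is not given in the sources used here. The deposited table also holds log2 values of DESeq2's regularized log transformation and the authors' own comparison (mean, log2 fold change, a score as test statistic, p-value and adjusted p-value), none of which was used.

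Counts were tested with edgeR 4.0.16 (R 4.3.3; TMM, filterByExpr with a minimum count of 10, quasi-likelihood test, Benjamini-Hochberg adjustment over 13322 genes, threshold 0.05), and the fit was tested on simulated data. There edgeR called 77 of 99 genes changed 2-fold and 90 of 101 changed 4-fold, with 11 false calls. The simulated libraries held no added low counts like those of vehicle replicate 3, so their effect was not tested. Standard errors came from the F statistic. Normalised counts refer to a library of 17911210 reads, the mean of the 6 totals, and were divided by the exon length counted for reads per kb. The floor of 3 counts covers counting error only. No pair of libraries was identical. Promoter windows and printed stretches were read from GRCh37 with GENCODE v44 lifted to it (Python 3.11.15). Of all stretches of 50 bases of each collagen transcript, at least 95.1% were in no transcript of another gene, except 79.4% in COL18A1.

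The collagen rows, classes, pairs and pathway lists were chosen with earlier results of these data known. Called collagens, those not called with a mean of at least 100 normalised counts or in a listed pair, and the 3 called genes with the highest mean count per list and direction were named. COL2A1, COL11A2, COL14A1 and COL15A1 were given values outside this rule. For chain modification, other called members of the named enzyme families were added after their values were seen. Alternatives were a replicate block, DESeq2 1.42.0, its size factors, library totals, 2 other filters and each library left out.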

Additional observations from a re-analysis of the deposited data

How the results depend on the processing

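The numbers of collagens higher (10) and lower (4) were 10 and 4 with the replicate block, the DESeq2 Wald test, DESeq2 size factors, library totals only and no filter, and 11 and 4 with at least 10 counts required in every library. With each library left out in turn, 6 to 11 collagens were higher and 4 lower, with 1 to 2 fibrillar, 1 to 2 type IV and 3 to 8 other collagens higher, and the pathway lists had 6 to 15 genes higher and 7 to 13 lower. Among these fits, the share of all genes called was computed only without vehicle replicate 3. The lowest collagen counts, 6 higher, were those without vehicle replicate 2 and without guadecitabine replicate 3, where 1 group held 2 libraries. For pathway lists the lowest were 6 higher without vehicle replicate 2 and 7 lower without guadecitabine replicate 3, and the highest 15 without vehicle replicate 3.

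No pairing of the libraries by replicate number was seen in their correlations, a check that cannot settle the matter with so few libraries. After subtraction of the group means, libraries with the same number correlated at -0.050, 0.049 and -0.037, and 2 of 6 libraries correlated best with their own number. With the replicate block all 14 called collagens stayed called.

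The direction changed in 3 genes that were not called. COL11A2 was at -0.29 on the log2 scale, 0.11 with the replicate block and -0.67 to 0.91 with libraries left out. COL7A1 was at 0.0012, -0.0004 with the replicate block, -0.0005 with the DESeq2 Wald test, -0.0047 with DESeq2 size factors and -0.11 to 0.11 with libraries left out. COL5A2 ranged from -0.25 to 2.25 with libraries left out, the highest without vehicle replicate 3. The cause was not tested. COL15A1 passed with at least 10 counts in every library (adjusted p = 0.0467, edgeR). The 19 untested collagens had at most 9 reads outside vehicle replicate 3, and the part of depth in this was not tested.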
